A study of Danio rerio with 6 samples.

Results

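Integrins and dystroglycan hold cells to the extracellular matrix, and the genes for these receptors, for laminins, fibronectins, nidogens, perlecan, vitronectins and thrombospondins, and for a few proteins inside the cell were followed here in sorted cells of zebrafish embryos. The genes were chosen by symbol, with earlier results of these data known, from the stems itga, itgb with a number, lam with a chain letter and number, fn1, nid, hspg2, dag1, vtn, ilk, tln and thbs. This gave 57 of 25965 named genes on the arrays, of which 29 encode receptors, 24 encode matrix ligands and 4 encode proteins inside the cell. The choice takes in *itgb1bp1*, a binding protein of the integrin tail and not an integrin chain. Each gene was read from whichever of its transcript clusters had the highest mean of the 6 arrays. A transcript cluster is a group of probes for a gene or part of it.

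The EGFP-positive group held 3 arrays of EGFP-positive, propidium iodide-negative cells sorted from homozygous *drl:EGFP* embryos at the 2 somite stage. The EGFP-negative group held 3 arrays of EGFP-negative, propidium iodide-negative cells of the same embryos, so that the transgene is carried by the cells of both groups. In this line EGFP is under a regulatory element of *draculin* (*drl*) and marks the lateral plate mesoderm, the source of heart, blood, vessels, kidney and fin mesenchyme. Embryos came from 3 mass matings of the same fish family, and each array holds RNA pooled from many embryos. Signals are log2 values from Affymetrix ZebGene arrays, normalized by RMA, and differences are EGFP-positive minus EGFP-negative.

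Integrins are pairs of an alpha and a beta chain that span the membrane, bind matrix proteins outside and reach the actin cytoskeleton through talin, kindlins and integrin-linked kinase inside. The alpha chain largely sets which ligand is bound. In the embryo, laminins assemble into basement membranes under epithelia, nidogen and perlecan tie the laminin network to type IV collagen, and fibronectin fibrils form around migrating and segmenting mesoderm. In zebrafish, fibronectin is needed for heart precursors to reach the midline, and laminin chains are needed for the notochord sheath.

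In EGFP-positive cells 5 of 7 laminin receptor genes were lower and 3 of 6 alpha chains for fibronectin and related ligands were higher, while on the matrix side both fibronectin genes were higher and perlecan was lower. These ligand classes of receptors were set after the values were seen, and over all 29 receptors 4 were higher and 5 were lower. Among the falls were those of *itga6b* at 11.3-fold, *itga6a* at 3.65-fold and *dag1* at 3.2-fold, and among the rises those of *thbs3b* at 7.08-fold, *itga11a* at 3.57-fold and *itga5* at 3.29-fold. The ratios of *itga6b*, *thbs3b* and *itga11a* are approximate, since the lower of their groups lay near the median signal of all clusters, where expression and background are not separated. Of the 57 genes, 10 were higher and 8 were lower by limma at a Benjamini-Hochberg adjusted p under 0.09 over all clusters, the false discovery rate of the study's methods. Over all named genes 4.12% were higher, 3.49% were lower and 7.61% were called in either direction. The median log2 difference was -0.04 over the 57 genes and -0.0048 over all named genes. The 39 genes that did not pass had differences from -0.48 to 0.43, and 26 of them had mean signals under 6 in both groups. Of the 57 genes, 43 had a mean signal at or above the median of all clusters (5.07), and these include every gene that was called. Among named genes at or above that level 5.90% were higher, 4.80% were lower and 10.7% were called in either direction. The mean takes in both groups, so a gene can reach that level through the group where it is high. The mean was 4.78 for *lamb2l* and 5.04 for *thbs1* in EGFP-positive arrays, and 5.05 for *itga11a* in EGFP-negative arrays.

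**Figure D1:**
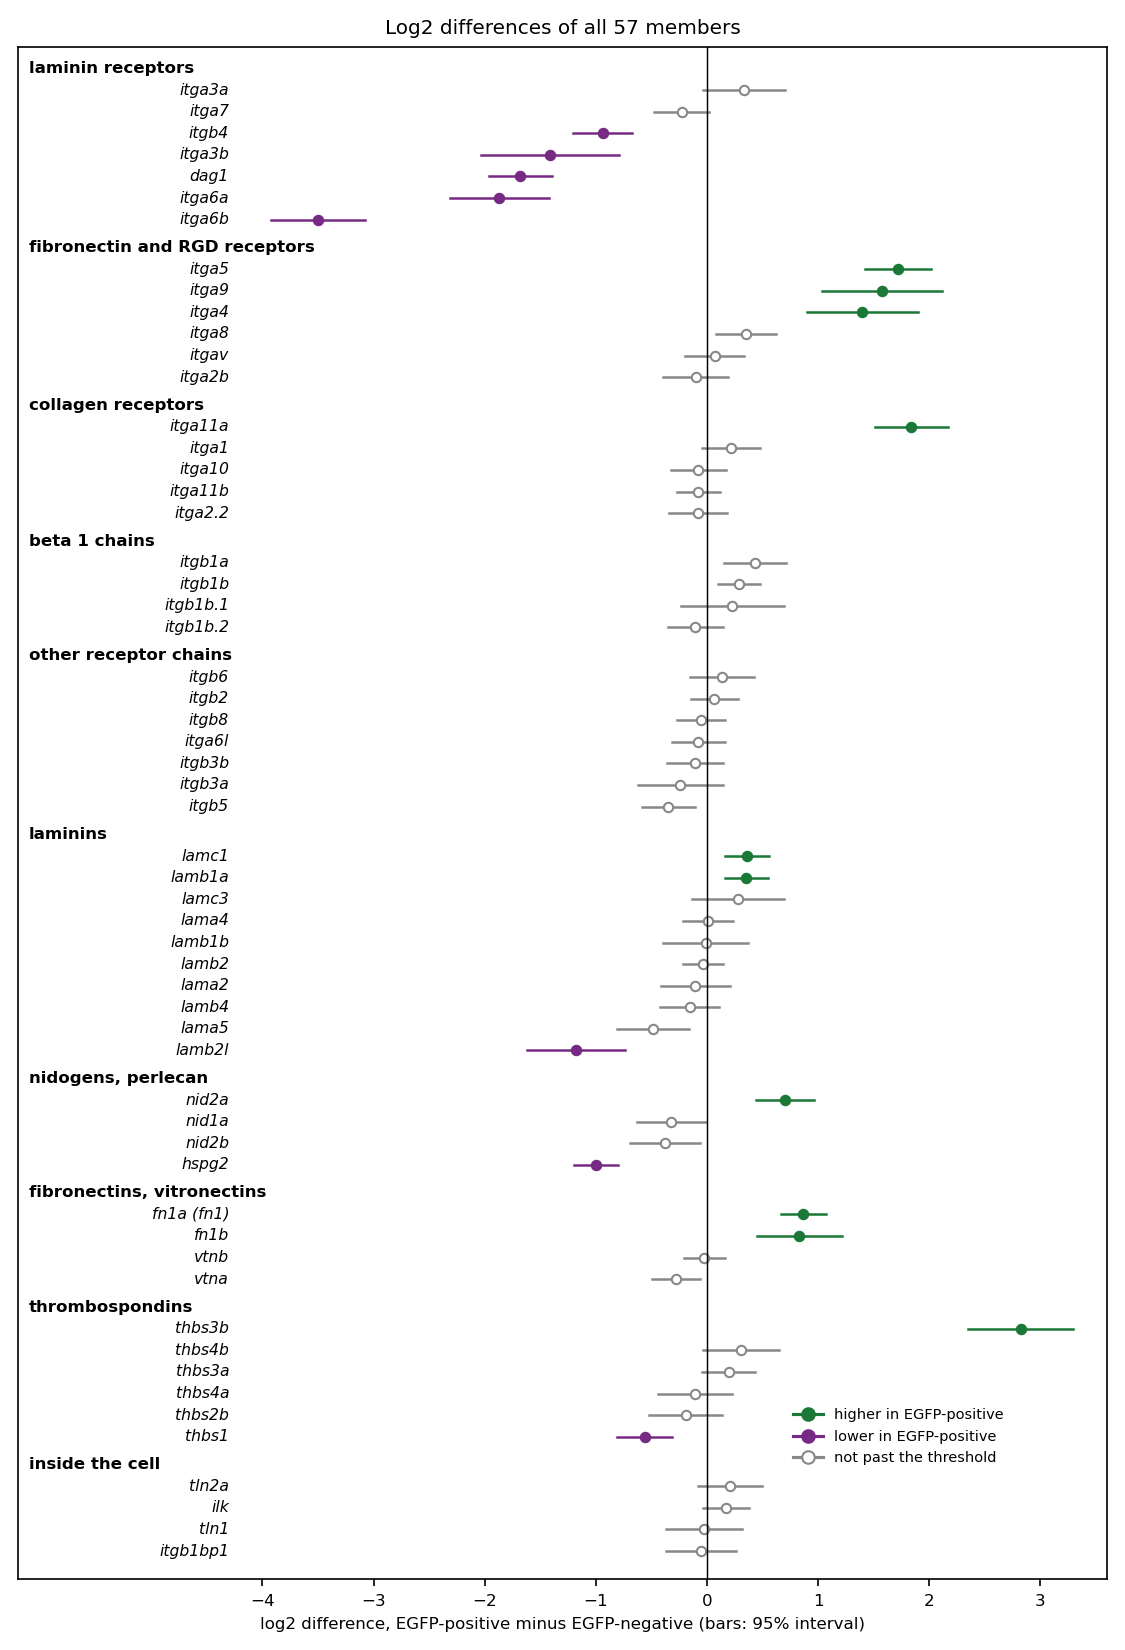
Log2 difference (EGFP-positive minus EGFP-negative) of each of the 57 genes by role, with the 95% interval of the limma fit as a bar. Filled points passed an adjusted p under 0.09. Among the laminin receptors 5 of 7 lie below 0 with filled points, from -0.94 to -3.50, while *itga5*, *itga9*, *itga4* and *itga11a* lie between 1.40 and 1.84.

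All 18 called genes had EGFP-positive arrays that did not overlap the EGFP-negative arrays. A call and a lack of overlap come from the same values, so this adds no support to the calls. In all, 17 of the 57 genes had every EGFP-positive array above every EGFP-negative array (12.9% of named genes) and 14 had every one below (12.6% of named genes). With 3 arrays against 3, no gene on its own can reach a p below 0.1 in an exact permutation test (two-sided). The calls therefore rest on the normal errors that limma assumes and on the variance that it shares across clusters. Of the lateral plate mesoderm markers, 11 of 11 measured genes were higher, with a mean over the list of 9.50 to 10.15 in EGFP-positive arrays and 5.88 to 6.36 in EGFP-negative arrays. The list holds *drl*, whose regulatory element drives the EGFP used for the sort. It was also chosen with earlier results of these data known, so it describes the fractions and is no independent check of them. The EGFP-positive fraction also had more signal of endoderm genes (4 of 5 higher) and hatching gland genes (6 of 7 higher). It had less signal of genes of the epidermis (10 of 13 lower), neural plate (9 of 13 lower) and notochord (4 of 7 lower). In a sorted fraction, fewer cells that express a gene and less RNA per cell cannot be told apart.

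Of the 7 laminin receptor genes, which in mammals encode the alpha 3, alpha 6, alpha 7 and beta 4 chains and dystroglycan, 5 were lower in EGFP-positive cells and none of the 7 was higher. Of all named genes 3.49% were lower, and 4.80% were among those at or above the median signal. This grouping by ligand was made after the values were seen, and no test was run over it. It leaves out the alpha 6-like gene *itga6l* (log2 difference -0.08), and *itga1* (0.21) and *itga2.2* (-0.08), which were set as collagen receptors. Their median log2 difference was -1.41. The gene *itga6b* encodes an alpha 6 chain, which with beta 4 anchors basal keratinocytes in mammals. It lies on the forward strand of chromosome 1 of Zv9 from 30075422 to 30120963. Its signal was 5.12, 5.53 and 5.74 in EGFP-positive arrays and 9.15, 8.97 and 8.76 in EGFP-negative arrays. The groups were far apart, and the EGFP-positive values lay near the median of all clusters, so the ratio is approximate. Its log2 difference was -3.50 ± 0.18 (SE, adjusted p = 0.000241 from limma).

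Its paralog *itga6a*, on the forward strand of chromosome 9 from 3426112 to 3482938, had 6.79, 7.48 and 7.47 in EGFP-positive arrays and 9.19, 9.10 and 9.06 in EGFP-negative arrays. The paralogs had EGFP-negative signals of similar size, while *itga6a* kept a clear signal in EGFP-positive cells. The log2 difference of *itga6a* was -1.87, with a 95% interval from -2.32 to -1.42 (adjusted p = 0.0030 from limma), which does not overlap the interval of *itga6b* from -3.92 to -3.08. Values of different probe sets carry their own scale, and the difference between the paralogs was not tested.

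The beta chain of the epidermal laminin receptor, *itgb4*, had 5.93, 5.95 and 6.23 in EGFP-positive arrays and 7.08, 6.89 and 6.97 in EGFP-negative arrays. It was 1.92-fold lower (adjusted p = 0.00587 from limma). The alpha 3 gene *itga3b*, which zebrafish need for a normal fin fold, had 7.32, 7.32 and 6.50 in EGFP-positive arrays and 8.73, 8.53 and 8.10 in EGFP-negative arrays. Replicate 3 was lowest in both groups, and the groups did not overlap. The log2 difference of *itga3b* was -1.41 ± 0.26 (SE, adjusted p = 0.0345 from limma), but *itga3b* no longer passed without EGFP-negative replicate 1 (adjusted p = 0.104) or replicate 2 of that group (adjusted p = 0.118). Its paralog *itga3a* averaged 6.01 ± 0.03 in EGFP-positive and 5.68 ± 0.31 in EGFP-negative arrays (SD, n = 3 each; log2 difference 0.34, 95% interval from -0.03 to 0.70), and did not pass.

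Dystroglycan is the main laminin receptor outside the integrin family and joins the matrix to dystrophin. Its gene *dag1*, on the forward strand of chromosome 22 from 36015344 to 36078398, had 8.49, 8.80 and 8.67 in EGFP-positive arrays and 10.29, 10.49 and 10.21 in EGFP-negative arrays. The signal was well above the median of all clusters in both groups, and the lowest EGFP-negative array exceeded the highest EGFP-positive array by a wide margin. The log2 difference was -1.68 ± 0.12 (SE, adjusted p = 0.000716 from limma). The alpha 7 gene *itga7*, a laminin receptor chain of muscle, averaged 6.46 in EGFP-positive and 6.68 in EGFP-negative arrays and did not pass (adjusted p = 0.383 from limma).

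The epidermis list was also lower in EGFP-positive cells, with 10 of 13 genes called. The mean over its 13 genes was 8.32, 8.53 and 8.75 in EGFP-positive arrays and 10.38, 10.10 and 10.33 in EGFP-negative arrays, with log2 differences of -3.11 for *tfap2c* and -2.49 for *tp63*, regulators of the early epidermis. All 13 genes kept an EGFP-positive signal above the median of all clusters. The neural plate list had means of 7.75, 8.13 and 8.19 in EGFP-positive arrays and 9.66, 9.46 and 9.65 in EGFP-negative arrays. Within the EGFP-positive group, both lists were lowest in replicate 1, as were *itga6b*, *itga6a*, *itgb4* and *dag1*, while *itga3b* was lowest in replicate 3. This order was not particular to these genes. The notochord list (7.20, 7.45 and 7.57) and the endoderm list (9.68, 9.90 and 9.99) were lowest in EGFP-positive replicate 1 as well. Of all named genes that were lower, 24.5% had their highest EGFP-positive value in that array, and the share with their lowest value there was not counted. In contrast, the hatching gland and enveloping layer lists were lowest in EGFP-positive replicate 2, and the lateral plate list in replicate 3. Within the EGFP-negative group, the epidermis and neural plate lists and *itgb4* were lowest in replicate 2. There *itga6b*, *itga6a*, *itga3b* and *dag1* were lowest in replicate 3. The part of epidermal and neural cells in the result of the laminin receptors was not tested.

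Of the 6 alpha chains that in mammals bind fibronectin, other ligands with the RGD motif or related sites, 3 were higher and none was lower, and the median log2 difference was 0.87. Of all named genes 4.12% were higher and 3.49% were lower. This class of alpha chains too was set after the values were seen, and no test was run over it. The gene *itga5* encodes the alpha chain of the main fibronectin receptor, which zebrafish need for somite boundaries. Its signal was 10.84, 10.58 and 10.66 in EGFP-positive arrays and 9.14, 8.77 and 9.02 in EGFP-negative arrays. The groups lay apart by more than the spread within either of them. The log2 difference was 1.72 ± 0.13 (SE, adjusted p = 0.000787 from limma). This cluster lies on unplaced sequence. A second cluster of *itga5*, on the reverse strand of chromosome 23 from 33661296 to 33771839, had a log2 difference of 1.62 (limma, adjusted p = 0.000344).

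The alpha 4 chain binds fibronectin and the vascular adhesion molecule VCAM1. Its gene *itga4* had 8.17, 7.94 and 7.63 in EGFP-positive arrays and 6.91, 6.45 and 6.19 in EGFP-negative arrays, so that it differed by 1.40 ± 0.21 on the log2 scale (SE, adjusted p = 0.016 from limma). The related alpha 9 chain binds tenascin C in mammals, and *itga9* had 9.18, 8.67 and 8.30 in EGFP-positive arrays and 7.37, 7.12 and 6.93 in EGFP-negative arrays. For both genes the groups were apart and replicate 1 was highest in each group. The log2 difference of *itga9* was 1.57 ± 0.23 (SE, adjusted p = 0.0134 from limma).

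The alpha v gene *itgav*, whose chain binds vitronectin and other RGD ligands, had 9.06, 9.26 and 9.0 in EGFP-positive arrays and 9.16, 9.07 and 8.89 in EGFP-negative arrays. These values overlap, and the log2 difference of 0.07 had a 95% interval from -0.20 to 0.33 (adjusted p = 0.847 from limma). The kidney-linked alpha 8 gene *itga8* averaged 5.10 in EGFP-positive and 4.75 in EGFP-negative arrays, and the platelet gene *itga2b* averaged 5.44 and 5.54 in the same order. Both signals were close to the median of all clusters, and neither gene passed.

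Of 5 collagen-binding alpha chains only *itga11a* passed, while 7.61% of all named genes did. In mammals the alpha 11 chain is a collagen receptor of mesenchymal cells. It had 7.06, 6.94 and 6.65 in EGFP-positive arrays and 5.24, 4.96 and 4.94 in EGFP-negative arrays, so the gene was near the median of all clusters in EGFP-negative cells, which makes its ratio approximate, and above it in EGFP-positive cells. The log2 difference was 1.84 ± 0.14 (SE, adjusted p = 0.000917 from limma), on the reverse strand of chromosome 7 from 34510798 to 34583283. Its paralog *itga11b* averaged 5.02 ± 0.06 in EGFP-positive and 5.10 ± 0.05 in EGFP-negative arrays (SD, n = 3 each), and *itga1*, *itga2.2* and *itga10* also stayed near the median of all clusters or below it, with log2 differences from -0.08 to 0.21. The alpha 6-like gene *itga6l*, set in no ligand class, had a mean signal below that median in both groups and a log2 difference of -0.08.

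The beta 1 chain is the partner of most of these alpha chains, and none of its 4 genes passed, while 7.61% of all named genes did. By limma 2 of the 4 had an unadjusted p under 0.05, which 18.5% of all named genes reached. The signal of *itgb1a* was 8.93, 8.89 and 8.70 in EGFP-positive arrays and 8.58, 8.25 and 8.39 in EGFP-negative arrays. The groups did not overlap, and the log2 difference of 0.43 had a 95% interval from 0.16 to 0.71 (adjusted p = 0.129 from limma). It passed in 3 alternatives: at an adjusted p of 0.0854 without clusters of low signal, and at 0.0858 when named genes alone were tested. The 3rd was the limma fit to the mean of every cluster of a gene (adjusted p = 0.0360). For *itgb1b* the log2 difference was 0.29 (adjusted p = 0.139 from limma), from a cluster on the forward strand that lies within a cluster listed as ITGB1B on the reverse strand. The ITGB1B cluster, which the symbol rule leaves out for its capitals and which was looked at after the values were seen, had the higher signal, at 11.05 ± 0.04 in EGFP-positive and 11.06 ± 0.09 in EGFP-negative arrays (SD, n = 3 each). Its log2 difference was -0.01, with a 95% interval from -0.21 to 0.19. The intervals of *itgb1a* and *itgb1b* ended at 0.71 and 0.47, below the lower bounds of *itga5* (1.42), *itga9* (1.04) and *itga4* (0.90), and the difference between chains was not tested.

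Of the beta chains beside *itgb1a*, *itgb1b* and *itgb4*, *itgb5*, a partner of alpha v, had 7.47, 7.76 and 7.60 in EGFP-positive arrays and 7.89, 7.98 and 7.99 in EGFP-negative arrays, without passing (adjusted p = 0.153 from limma). The platelet and vascular genes *itgb3a* and *itgb3b*, the leukocyte gene *itgb2*, and *itgb6*, *itgb8*, *itgb1b.1* and *itgb1b.2* had mean signals of 3.69 to 5.66 and log2 differences from -0.24 to 0.23. Expression and background are not separated at these levels.

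**Figure D2:**
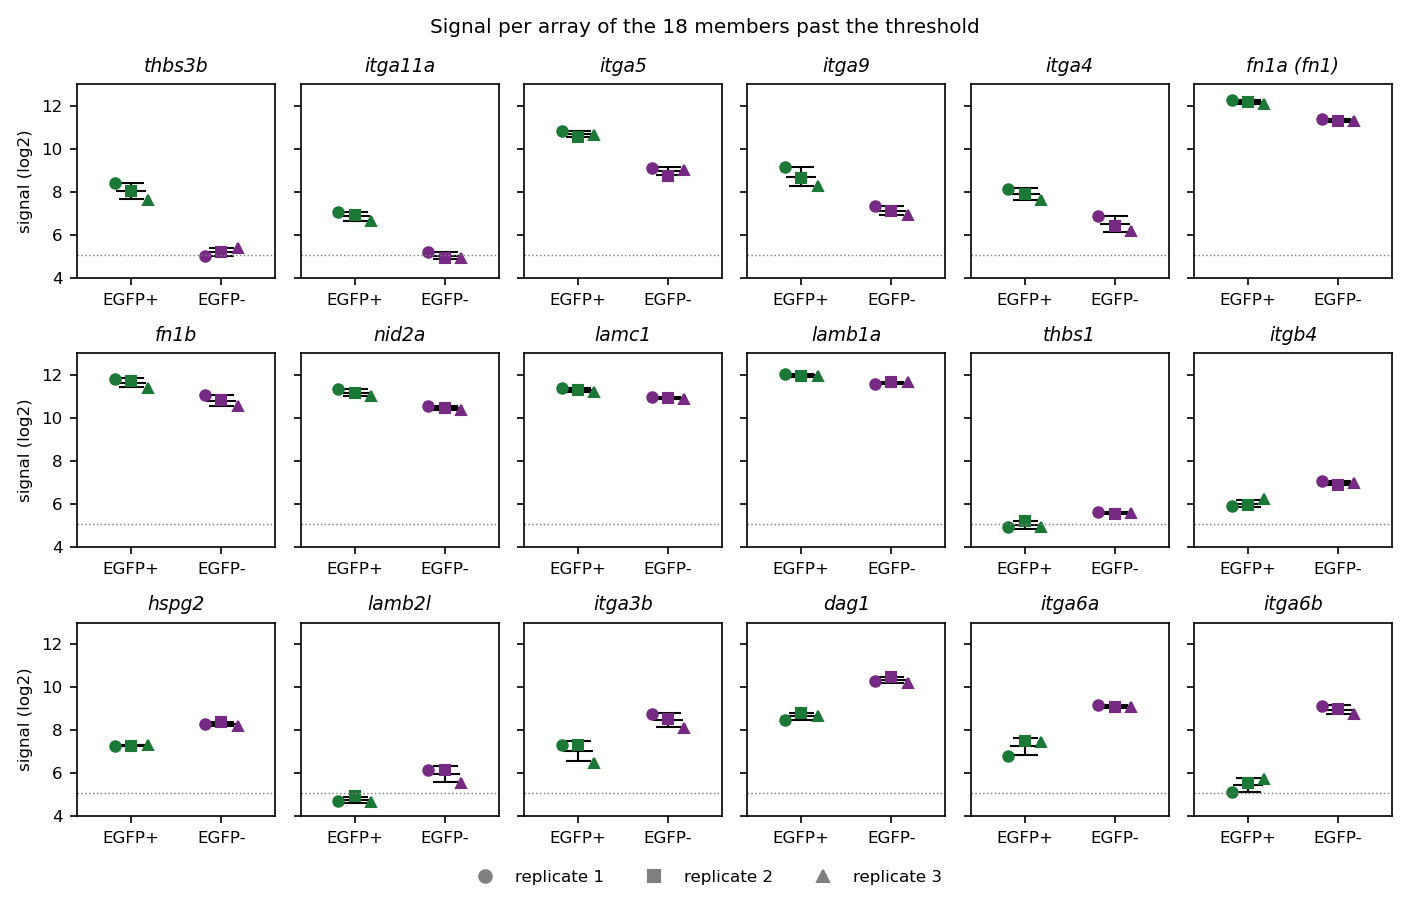
Log2 signal of the 18 called genes in each array, ordered by log2 difference from *thbs3b* (2.82) to *itga6b* (-3.50), with EGFP-positive (EGFP+, green) left of EGFP-negative (EGFP-, purple). Symbols mark the replicate number, bars the mean and SD of 3 arrays, and the dotted line the median of all clusters (5.07). In each panel the groups are apart, and *lamb1a* and *lamc1* have the smallest gaps among the genes that were higher.

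Among the 24 matrix genes, 6 were higher and 3 were lower, against 4.12% and 3.49% of all named genes, and the median log2 difference was -0.03. Only 3 matrix genes were higher without EGFP-positive replicate 1 or 2 or EGFP-negative replicate 2 or 3, in fits where higher calls over all named genes also fell, to 670 to 743 of 25965, against 1071 with all arrays. The hatching gland list had means of 8.69 to 9.0 in EGFP-positive and 7.02 to 7.24 in EGFP-negative arrays, and the endoderm list had 9.68 to 9.99 in EGFP-positive and 7.64 to 8.19 in EGFP-negative arrays. Their part in the matrix results was not tested. Both fibronectin genes were higher. The gene *fn1a*, listed under its older symbol fn1 and needed for heart precursor migration in zebrafish, had 12.28, 12.20 and 12.11 in EGFP-positive arrays and 11.38, 11.32 and 11.28 in EGFP-negative arrays. It lies on the reverse strand of chromosome 9 from 15638532 to 15700871. The replicates lay close together, and the 1.82-fold rise stood clear of their spread (log2 difference 0.86 ± 0.09, SE, adjusted p = 0.00268 from limma). Its paralog *fn1b*, on the reverse strand of chromosome 1 from 4393282 to 4432219, had 11.82, 11.71 and 11.41 in EGFP-positive arrays and 11.07, 10.82 and 10.56 in EGFP-negative arrays. The rise of *fn1b* was of similar size, 1.78-fold, with a wider spread between replicates (adjusted p = 0.0428 from limma). Its call was lost without EGFP-positive replicate 1 or 2 or EGFP-negative replicate 2 or 3 (adjusted p = 0.115 to 0.148), and the listed span overlaps *atic* and *ndfip2* on the other strand. The vitronectin genes *vtna* and *vtnb*, whose product circulates in blood plasma, had mean signals of 4.14 to 4.52, below the median of all clusters, and did not pass.

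Each laminin is a trimer of an alpha, a beta and a gamma chain. Of 10 laminin genes, 2 were higher and 1 was lower, against 4.12% and 3.49% of all named genes. The beta 1 gene *lamb1a* had 12.05, 11.95 and 11.97 in EGFP-positive arrays and 11.57, 11.67 and 11.66 in EGFP-negative arrays, and the gamma 1 gene *lamc1* had 11.38, 11.31 and 11.21 in EGFP-positive arrays and 10.99, 10.93 and 10.89 in EGFP-negative arrays. These chains, which zebrafish need for the notochord sheath, had strong signals in both groups and were 1.28-fold higher each (adjusted p = 0.0784 for *lamb1a* and 0.0829 for *lamc1* from limma). Leaving out any of the 6 arrays lost both calls (adjusted p = 0.112 to 0.245), as did a threshold of 0.05.

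The alpha 5 gene *lama5*, which zebrafish need for the basement membrane of the fin fold, had 8.09, 7.67 and 7.61 in EGFP-positive arrays and 8.30, 8.30 and 8.23 in EGFP-negative arrays. The groups were apart, and the log2 difference of -0.48 had a 95% interval from -0.81 to -0.16 (adjusted p = 0.146 from limma). Without EGFP-positive replicate 1, its highest EGFP-positive array, *lama5* passed (adjusted p = 0.0322), and it did so after quantile normalization again (adjusted p = 0.0698). It also passed in the limma fit to the mean of every cluster of a gene (adjusted p = 0.0395). The beta 2-like gene *lamb2l* had 4.73, 4.94 and 4.66 in EGFP-positive arrays and 6.17, 6.17 and 5.53 in EGFP-negative arrays. It was 2.26-fold lower (adjusted p = 0.0198 from limma), with EGFP-positive values at or under the median of all clusters. The other laminin genes, *lama2*, *lama4*, *lamb1b*, *lamb2*, *lamb4* and *lamc3*, had log2 differences from -0.16 to 0.28 in their chosen clusters. The chosen cluster of *lamb2* (-0.04) is short and lies within a longer *lamb2* cluster on the opposite strand. That longer cluster had a log2 difference of 0.30 and did not pass (adjusted p = 0.250 from limma).

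Of the linkers between laminin and collagen networks, perlecan was lower and a nidogen was higher. The perlecan gene *hspg2* had 7.27, 7.29 and 7.33 in EGFP-positive arrays and 8.31, 8.38 and 8.21 in EGFP-negative arrays, with a spread within each group far smaller than the distance between them. It was 2.00-fold lower (log2 difference -1.0 ± 0.08, SE, adjusted p = 0.00136 from limma), on the reverse strand of chromosome 23 from 26784353 to 26892910. In contrast, *nid2a* had 11.35, 11.15 and 11.03 in EGFP-positive arrays and 10.57, 10.46 and 10.39 in EGFP-negative arrays, a 1.63-fold rise (adjusted p = 0.0179 from limma). Its paralog *nid2b* averaged 8.42 ± 0.22 in EGFP-positive and 8.80 ± 0.14 in EGFP-negative arrays, and *nid1a* averaged 5.16 ± 0.09 and 5.49 ± 0.23 in the same order (SD, n = 3 each). For both the EGFP-positive arrays lay below the EGFP-negative arrays, and neither passed (adjusted p = 0.253 and 0.327 from limma).

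Thrombospondins are secreted matrix proteins that bind calcium, other matrix components and cell surface receptors. Of 6 genes, *thbs3b* was higher and *thbs1* was lower, while 4.12% of all named genes were higher and 3.49% were lower. The signal of *thbs3b* was 8.43, 8.06 and 7.66 in EGFP-positive arrays and 5.04, 5.25 and 5.39 in EGFP-negative arrays. The EGFP-negative values lay at the median of all clusters, so the ratio is approximate, while the EGFP-positive values were well above it. The log2 difference was 2.82 ± 0.20 (SE, adjusted p = 0.000716 from limma). This cluster of 11 probes lies on the reverse strand of chromosome 19 from 24905332 to 24929250. Its paralog *thbs3a* averaged 5.38 ± 0.09 in EGFP-positive and 5.18 ± 0.14 in EGFP-negative arrays (SD, n = 3 each), without passing. The log2 differences of *thbs2b*, *thbs4a* and *thbs4b* were -0.19, -0.11 and 0.31. The gene *thbs1*, whose product restrains vessel growth in mammals, had 4.94, 5.24 and 4.96 in EGFP-positive arrays and 5.65, 5.55 and 5.61 in EGFP-negative arrays, a 1.48-fold fall (adjusted p = 0.0374 from limma) at a signal near the median of all clusters. Its call was kept without EGFP-positive replicate 2 and was lost when any other array was left out (adjusted p = 0.0959 to 0.131).

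None of the 4 genes for proteins inside the cell passed by limma, and none did so at an unadjusted p under 0.05. Of all named genes 7.61% passed and 18.5% reached that unadjusted p, so a count of 0 among 4 says little. Integrin-linked kinase is a scaffold at the integrin tail, and *ilk* had 9.56, 9.70 and 9.53 in EGFP-positive arrays and 9.49, 9.41 and 9.37 in EGFP-negative arrays. Its groups did not overlap, but the log2 difference was small at 0.17, with a 95% interval from -0.04 to 0.38. Talin binds and activates integrins, and the talin genes *tln1* and *tln2a* had log2 differences of -0.03 and 0.21, with intervals from -0.37 to 0.32 and from -0.08 to 0.50. The binding protein gene *itgb1bp1* had a log2 difference of -0.05 (95% interval from -0.37 to 0.26).

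Receptors and matrix ligands each held genes that were higher and genes that were lower. Of 29 receptors 4 were higher and 5 were lower, and of 24 matrix genes 6 were higher and 3 were lower. Over all named genes 4.12% were higher and 3.49% were lower, and at or above the median signal 5.90% and 4.80% were. Their median log2 differences were -0.08 for receptors and -0.03 for matrix ligands, close to that of all named genes (-0.0048). The receptor range ran from -3.50 to 1.84, and the matrix range ran from -1.18 to 2.82. On the fibronectin side, *fn1a*, *fn1b* and *itga5* were higher, with the call of *fn1b* lost in 4 of the 6 fits that left out an array. The alpha chain genes *itga4* and *itga9* were higher as well. None of *itgav*, *itga8*, *itga2b*, the beta 1 genes and the vitronectin genes passed. On the laminin side, *itga6a*, *itga6b*, *itga3b*, *itgb4* and *dag1* were lower, as was the chain gene *lamb2l*, while *lamb1a* and *lamc1* were slightly higher, with calls that were lost when any array was left out. No test was run of receptors against ligands, since genes of a class are not replicates.

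Of the 57 genes, 25 had further clusters, 37 in all. For the 8 called genes among these, all 13 further clusters had the sign of the chosen cluster, and 7 of them passed on their own. Not all of these read the strand of the gene as listed. The further clusters of *dag1*, *fn1a* and *lamb1a*, which passed, are listed on the opposite strand, as are clusters of *itgb4* and *lamb2l* that did not pass. None of the 24 further clusters of genes that did not pass was called. For *itga3b* the further cluster had a single probe and a low signal (log2 difference -0.51, adjusted p = 0.406 from limma), and for *itgb4* and *lamb2l* the weak clusters had smaller differences than the chosen one. Averaging every cluster of a gene, with those on the opposite strand included, gave log2 differences of -0.52 for *itgb4*, -0.59 for *lamb2l* and -0.96 for *itga3b*, and all 3 passed.

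**Figure D3:**
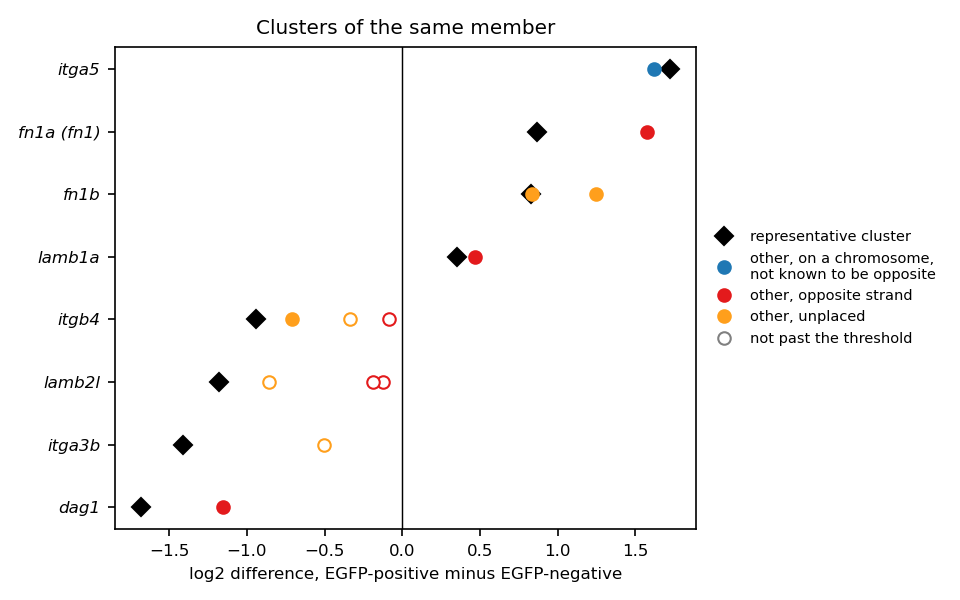
Log2 difference (EGFP-positive minus EGFP-negative) of each transcript cluster of the 8 called genes that have several, with the chosen cluster as a black diamond and the others as circles, coloured by where they are listed and filled where they passed. Every cluster of a gene lies on the same side of 0, and the spread within a gene is widest for *lamb2l* and *itga3b*.

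The higher genes shared a pattern between replicates. All 10 had their highest EGFP-positive value in replicate 1, which held the highest EGFP-positive value of 44.1% of all named genes that were higher, and 8 of 10 had their highest EGFP-negative value in EGFP-negative replicate 1 (53.1% of all named genes that were higher). Among the 8 lower genes, 6 had their highest EGFP-negative value in the same array (63.4% of all named genes that were lower). The list of lateral plate genes averaged 10.15 in EGFP-positive replicate 1, and 9.76 and 9.50 in EGFP-positive replicates 2 and 3. Its genes did not all fall in that order. In these 3 arrays *tal1* had 9.84, 8.53 and 8.03, while *drl* had 9.73, 9.99 and 10.07 and *osr1* had 11.47, 11.53 and 11.41. Without EGFP-positive replicate 1 the log2 difference was 2.63 for *thbs3b*, 1.34 for *itga9* and 1.27 for *itga4*, and these 3 calls remained. The part of the makeup of that sort in these values was not tested.

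Genes that work beside these receptors and ligands were read from 4 further lists. Of 33 measured genes for other basement membrane components and integrin ligands, 7 were higher and 4 were lower, and the median log2 difference was -0.02. Over all named genes 4.12% were higher and 3.49% were lower. The gene *tgfbi*, for a secreted protein that binds integrins and collagen, had 10.12, 9.86 and 9.63 in EGFP-positive arrays and 7.96, 7.55 and 7.52 in EGFP-negative arrays, a 4.58-fold rise (adjusted p = 0.000965 from limma). The fibulin gene *fbln1* was 3.13-fold higher, and *fbln2*, *col15a1b*, *ccn2a*, *frem1b* and *hmcn1* were higher by 0.71 to 0.92 on the log2 scale. The largest fall in the list was that of *col18a1a*, for a collagen that joins basement membranes to the tissue below. It had 6.37, 6.15 and 6.16 in EGFP-positive arrays and 8.49, 8.19 and 8.35 in EGFP-negative arrays, a 4.34-fold fall (adjusted p = 0.00027 from limma). The type IV collagen genes *col4a5* and *col4a6* were lower as well, by 0.91 and 0.49 on the log2 scale (adjusted p = 0.0030 and 0.0819 from limma). The other type IV genes measured, *col4a1*, *col4a3* and *col4a4*, did not pass. Their log2 differences were -0.02, -0.07 and -0.07, at mean signals of 3.21 to 5.36. The gene *frem2a* fell by 0.60, and perlecan was lower too. Without EGFP-positive replicate 1 the list held 5 higher and 2 lower genes. The epidermis list described above was lower as well, and its part in the lower matrix genes was not tested.

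Of 22 measured focal adhesion adaptors, 2 were higher and 3 were lower, against 4.12% and 3.49% of all named genes. Kindlins bind the integrin beta tail together with talin, and 2 of the 3 measured kindlin genes were called, in opposite directions. The mesenchymal kindlin gene *fermt2* had 9.48, 9.49 and 9.42 in EGFP-positive arrays and 8.84, 8.55 and 8.69 in EGFP-negative arrays (log2 difference 0.77, adjusted p = 0.00768 from limma). The epithelial kindlin gene *fermt1* had 8.47, 8.16 and 8.07 in EGFP-positive arrays and 9.48, 9.15 and 9.02 in EGFP-negative arrays (log2 difference -0.99, adjusted p = 0.0192 from limma). For both genes the groups were apart, while the blood cell kindlin gene *fermt3b* did not pass (log2 difference -0.05). The actin crosslinker *actn1* was higher (log2 difference 0.59), and the adaptors *ptk2bb* and *bcar1* were lower (-0.65 and -0.58). Only 1 adaptor was higher at a threshold of 0.05, after quantile normalization again, and without EGFP-positive replicate 1 or 2 or EGFP-negative replicate 2 or 3.

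While 7.61% of all named genes were called, of 21 measured genes of the dystroglycan complex and its glycosylation *large2* alone was called. Its product adds the sugar chain through which dystroglycan binds laminin. It averaged 9.17 in EGFP-positive and 10.05 in EGFP-negative arrays (log2 difference -0.88, adjusted p = 0.00504 from limma), lower as *dag1* was. The next lowest was *b3galnt2* (log2 difference -0.56, adjusted p = 0.0946 from limma), and the highest were *rxylt1* (0.38) and *pomt2* (0.29), all without passing. The median of that list was 0.04. None of 8 measured hemidesmosome genes passed by limma (3 at an unadjusted p under 0.05, against 18.5% of all named genes), and among them the keratin gene *krt5* had the lowest log2 difference at -1.25 (adjusted p = 0.158) and the plectin gene *pleca* the highest at 0.65. Next to these came *plecb* at -0.26 and *cd151l* at 0.07.

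**Figure D4:**
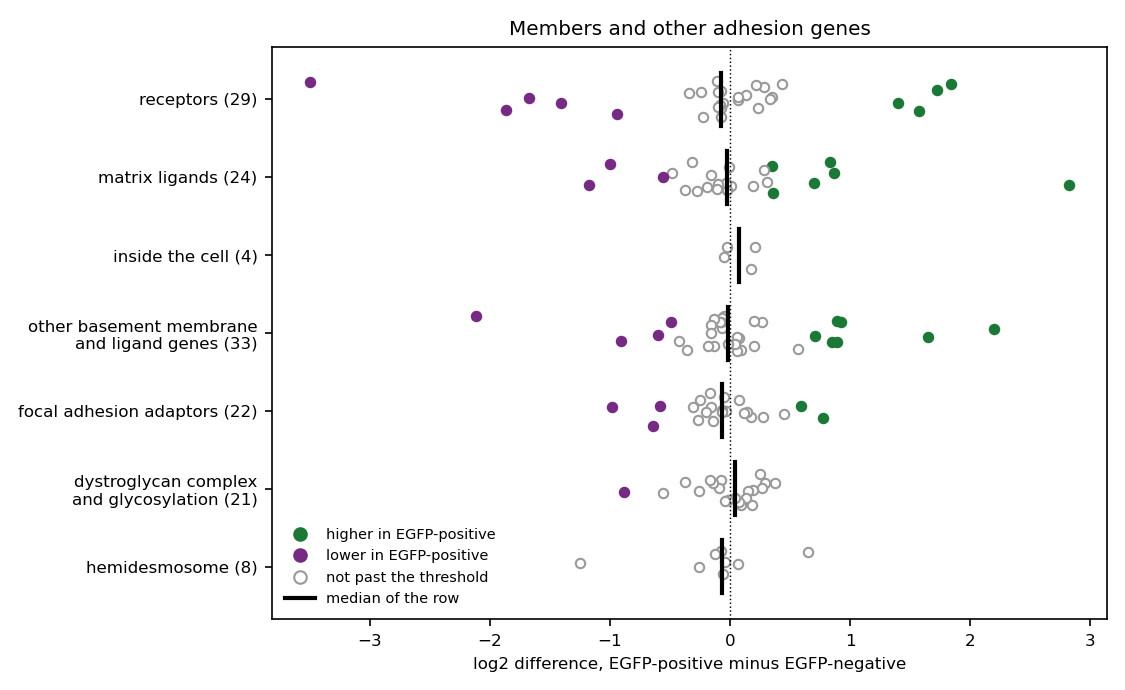
Log2 difference (EGFP-positive minus EGFP-negative) of every measured gene in the 3 classes of the integrin and matrix genes and in 4 further adhesion lists, with the row median as a black bar and the median of all named genes as a dotted line. All row medians lie between -0.08 and 0.07, while single genes reach -3.50 among receptors and 2.82 among matrix ligands.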

How the data were processed

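Sorted cells of *drl:EGFP* embryos were profiled on 6 Affymetrix ZebGene arrays of a single colour, 3 with EGFP-positive and 3 with EGFP-negative cells. Per the labels, the authors corrected the background, normalized by RMA at gene level in ExpressionConsole with Zv9 annotation, and deposited log2 signals for 75212 transcript clusters. Array medians were 5.02 to 5.10, and precision is limited by how few arrays there are. RMA forces like distributions on the arrays and compresses low signals, so ratios of dim genes are approximate. The deposited comparison columns (fold changes and p-values of the authors) were not used beyond gene names and positions, and no value column was left without a sample.

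The deposited log2 values were fitted with limma 3.58.1 (lmFit and eBayes, R 4.3.3) on all clusters, with the group as the only term and Benjamini-Hochberg adjustment over all clusters at 0.09. The methods name another tool, siggenes, at that rate. Per gene the cluster with the highest mean of 6 arrays was taken, and 14293 clusters share identical values with another. The replicates come from 3 separate matings, and replicate numbers were not used as pairs. The fit was tested on simulated data. By rule the text names each of the 57 genes that passed, a fixed set of partners whatever their result, the brightest gene of each role, and the 2 highest and 2 lowest of each adhesion list. The fixed partners included *lama1*, which was not found under that symbol among the named genes. Paralogs and other genes were named after their values were seen. Members and lists were chosen with earlier results of these data known. Symbols were updated through a table of assembly GRCz12tu, which held 56 of 57. Alternatives were a replicate block, an intensity trend, quantile normalization again, centring on array medians, a filter on low signal, adjustment over named genes, the mean of all clusters, a threshold of 0.05 and leaving out each array. Figures were drawn with matplotlib 3.10.9. The paraxial mesoderm list (3 of 9 higher, 1 lower) and the enveloping layer list (1 of 8 higher, 2 lower) were also read.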

Additional observations from a re-analysis of the deposited data

Results flagged for a closer look

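Signal was also seen in clusters that the main comparison does not use, listed on the strand opposite to a called gene and inside its span. They are among the further clusters described above and enter the averages over every cluster of a gene. The cluster opposite *fn1a* (listed as fn1) had 7.47, 7.44 and 7.46 in EGFP-positive arrays and 6.16, 5.92 and 5.59 in EGFP-negative arrays, or 1.57 higher on the log2 scale (limma, adjusted p = 0.00199). The cluster opposite *lamb1a* had 11.28, 11.25 and 11.27 in EGFP-positive arrays and 10.72, 10.78 and 10.90 in EGFP-negative arrays, or 0.47 higher on the log2 scale (limma, adjusted p = 0.0316). In both the groups were apart, and the difference ran the same way as in the cluster on the strand of the gene.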

How the results depend on the processing

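Of the 18 called genes, 13 kept their call under every alternative run, and *fn1b*, *itga3b*, *lamb1a*, *lamc1* and *thbs1* lost it under at least 1. Leaving out each array gave 7 to 8 higher and 6 to 8 lower genes of the 57, and 3 to 4 higher matrix genes, with 670 to 1002 higher and 581 to 698 lower among all named genes. Both fractions were sorted from the embryos of each mating, but which arrays share a mating is not given, so replicate numbers were not taken as pairs. Deviations of same-numbered arrays correlated at -0.03, 0.04 and 0.09, which does not settle the pairing of single genes. Among the higher genes, *itga11a*, *itga9*, *itga4*, *fn1a*, *fn1b*, *nid2a* and *lamc1* fell from replicate 1 to replicate 3 in both groups. For *thbs3b*, *itga5* and *lamb1a* this order was not seen in both. With the replicate number as a block 8 genes were higher and 7 lower, with 873 higher and 710 lower among all named genes (1071 and 905 without). In that fit *lamc1*, *lamb1a* and *thbs1* did not pass (adjusted p = 0.160, 0.199 and 0.107 from limma). The adjusted p became smaller for *itga3b* (0.00887), *fn1b* (0.0207), *itga4* (0.00640) and *itga9* (0.00790), and larger for the other called genes. Averaging every cluster of a gene gave 12 higher and 9 lower of the 57 and 1702 higher and 1362 lower among all named genes. The log2 difference of *itgav* changed sign after quantile normalization again (-0.0125), without EGFP-positive replicate 2 (-0.00773) and without EGFP-negative replicate 3 (-0.00558), and ranged from -0.00773 to 0.127 when an array was left out. The cause of these changes was not tested. The signal of dim genes was not told apart from background, which limits *itga6b*, *thbs3b*, *itga11a*, *lamb2l* and *thbs1*.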

Other observations

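The cluster opposite *dag1* had 4.99, 4.72 and 5.12 in EGFP-positive arrays and 6.52, 6.01 and 5.77 in EGFP-negative arrays, or -1.16 on the log2 scale (limma, adjusted p = 0.0287), lower as *dag1* itself was. Besides ITGB1B, 3 symbols in capitals fall outside the symbol rule. LAMA2 averaged 5.14 in EGFP-positive and 5.41 in EGFP-negative arrays, and LAMA3 averaged 4.21 in EGFP-positive and 4.11 in EGFP-negative arrays. For NID1 the log2 difference was 0.14, with a 95% interval from -0.07 to 0.35. None of them passed by limma (adjusted p = 0.308, 0.703 and 0.544). With these 4 symbols the counts stayed at 10 higher and 8 lower, of 61 genes.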
